A study of Caenorhabditis elegans with 24 samples.

Results

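The genes of the mitochondrial ribosomal proteins were followed through an RNA-sequencing experiment on whole *C. elegans* adults. Members were all genes of the table whose symbol is mrpl- or mrps- followed by a number or letter, which gave 70 genes of 21982, of which 41 carry a large subunit (mrpl-) and 29 a small subunit (mrps-) symbol. All 70 passed the filter on low values. The study asked what happens to gene expression when RAGA-1, the Rag GTPase that relays amino acid signals to the kinase complex mTORC1, is removed from all somatic tissues or from neurons alone. Both degron strains carry raga-1(wbm40), an endogenous *raga-1* with a degron and EmGFP, and in the presence of auxin the plant protein TIR1 marks the tagged protein for degradation. RAGA-1::AID Somatic (WBM1438) expresses TIR1 fused to mRuby under the broadly active *eft-3* promoter (ieSi57, which also carries Cbr-unc-119(+)), and RAGA-1::AID Neuronal (WBM1250) expresses 3xflag-tagged TIR1 under the pan-neuronal *rab-3* promoter (wbmIs83, built into wbmIs66). Each degron strain and wild type (N2 Bristol) were given 0.15 mM auxin, or ethanol as its control, from day 1 of adulthood until harvest at day 3, with about 400 worms per sample and 4 replicates in each of the 6 groups. Each genotype is represented by 1 strain, and strains with the degron or TIR1 alone were not analysed here, so the tag and the transgene differ from wild type together. The study reports a low level of RAGA-1 degradation without auxin in the somatic strain. The RAGA-1::AID Somatic no auxin group, the reference of the somatic comparison, is therefore not a group with intact RAGA-1.

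Mitochondria keep a ribosome of their own, made of a large and a small subunit, which translates the few messenger RNAs of the mitochondrial genome into core subunits of the respiratory chain. Its RNAs come from the mitochondrial genome, whereas all of its proteins are encoded in the nucleus and imported. Some of these proteins descend from those of the bacterial ribosome and others are found only in mitochondria. In worms, lowering mitochondrial ribosomal proteins such as MRPS-5 is known to extend lifespan.

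The deposited values are normalized counts, that is, gene counts divided by 1 size factor per library. Recovered depth was 16982857 to 41671106 reads per library. The 10 most abundant genes held 21.6 to 25% of the RAGA-1::AID Somatic auxin libraries and 13.7 to 18% of the others. *raga-1* itself was lower in both degron strains than in wild type without auxin (log2 fold change -0.75 ± 0.043 (SE), adjusted p = 1.52e-10 in RAGA-1::AID Somatic, and log2 fold change -0.76 ± 0.043 (SE), adjusted p = 2.28e-10 in RAGA-1::AID Neuronal), and it fell further on auxin in RAGA-1::AID Somatic (log2 fold change -0.18 ± 0.043 (SE), adjusted p = 0.00167). The degron acts on the protein, so the transcript does not check its removal. Of the marker genes chosen for each tissue, none of 10 for sperm passed the filter, and some for every other tissue did (15 of 15 germline, 15 of 15 oocyte, 10 of 10 intestine, 10 of 10 body wall muscle, 10 of 10 neuron, 9 of 10 epidermis, 7 of 11 embryo). Whole animals were sequenced, so fewer cells of a type and less RNA per cell cannot be told apart.

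The members are short genes that are scattered over the autosomes. In WBcel235, 22 lie on chromosome III, 15 on I, 12 on II, 11 on IV and 10 on V, and 0 lie on X, which holds 14.3% of the 12718 protein-coding genes tested. Their median coding length was 606 bases (231 for *mrpl-36* to 1569 for *mrps-30*), against 1131 bases over all protein-coding genes tested. Many sit close behind or ahead of another gene on the same strand, an arrangement that in this species often marks genes transcribed together in an operon: 47 of 70 (67.1%) had such a neighbour within 500 bases, against 39.2% of all protein-coding genes tested. Among these are *mrps-2* and *mrpl-4*, which lie 105 bases apart on chromosome V, *mrps-22*, 105 bases behind *dap-3*, and *mrpl-47*, 340 bases ahead of *let-363*, the gene of the mTOR kinase. The annotated span of 7 members overlaps another protein-coding gene on the same strand and that of 14 overlaps one on the opposite strand, so reads of these could be shared with the neighbour.

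In wild type without auxin, members differed by several fold in level per length. The highest was *mrpl-11* with 2166 ± 43.9 normalized counts per kilobase of transcript (SD, n = 4), whose bacterial counterpart forms the base of the stalk that binds elongation factors. It was followed by *mrpl-51*, a protein of the mitochondrial large subunit, with 1836 ± 46.9, and by *mrps-16*, of bacterial descent, with 1797 ± 61.1. These last 2 neighbours in the order lie within their spread, whereas *mrpl-11* stood above both. The lowest were *mrpl-46* with 418 ± 39.9, *mrps-31* with 448 ± 26.8 and *mrpl-37* with 547 ± 28.4 normalized counts per kilobase, and the lower pair of these overlapped. The median over members was 1016 per kilobase, against 278.5 over all protein-coding genes tested, and every member was above that median. The 81 cytosolic ribosomal protein genes had a median of 25554 normalized counts per kilobase and the 55 nuclear genes of oxidative phosphorylation one of 2739. Large subunit members had a median of 1012 per kilobase and small subunit members one of 1019. The 43 members of bacterial type had a median of 1103, against 896 for the 27 found only in mitochondria. Replicates were tight, with a median coefficient of variation of 3.42 to 4.77% over members in each group.

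**Figure D1:**
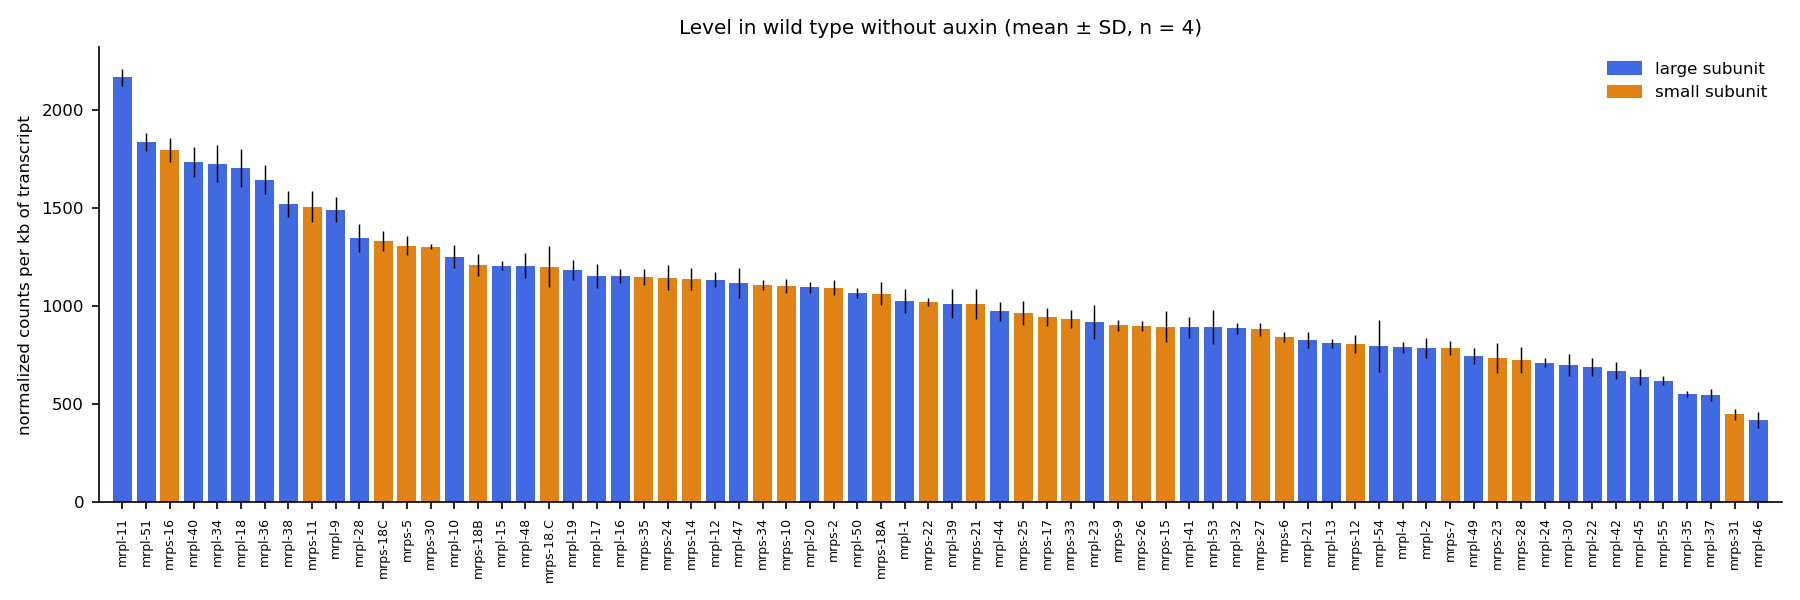
Level of each of the 70 members in wild type without auxin, in normalized counts per kilobase of transcript (bars, mean; error bars, SD over 4 libraries), with large subunit genes in blue and small subunit genes in orange. Levels run from 418 for mrpl-46 to 2166 for mrpl-11, and both subunits are spread over the whole range.

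After somatic degradation of RAGA-1, part of the mitochondrial ribosomal protein genes was lower, by modest amounts and in a share somewhat above that of all genes. Of 70 members, 19 fell and 0 rose at an adjusted p of 0.01 or less (limma, adjusted over 13150 genes), and 60 of 70 had a negative log2 fold change. Over all genes tested, 19.6% were called lower and 16% higher, so the share of members called lower (27.1%) was somewhat above the background share, whereas no member was among the called rises. At an unadjusted p under 0.05, 33 members passed, beside 7161 of all 13150 genes. edgeR and DESeq2 also called 0 members higher and each called 17 lower. Over all genes, edgeR called 2285 of 13150 lower. DESeq2, run without the filter on low values, called 2522 of 20601 lower. The median log2 fold change of members was -0.089 (range -0.30 to 0.16), against 0.0096 over all genes. In 21 members all 4 auxin libraries lay below all 4 no auxin libraries, and in 1 they lay above, which happened in 20.5% and 17.2% of all genes. The changes of the 19 called genes ran from -8.04% for *mrpl-50* to -18.7% for *mrps-33*. With reads scaled to the total instead, the median over all genes moved to -0.10 and that over members to -0.20, and 42 members were called lower. The distance of members from all genes (-0.10) was that of the size-factor scale (-0.10), since such a scaling moves all genes of a library alike. After quantile normalization the medians were -0.13 for members and -0.054 for all genes, a smaller distance (-0.071). With total-read scaling the calls over all genes were 1509 higher and 4329 lower, and after quantile normalization 1281 higher and 2444 lower, against 2105 higher and 2575 lower with size factors. With only the 8 somatic libraries in the fit, 7 members were called lower, a count given here without that over all genes. With the replicate number, which may stand for a collection day, as a block, 22 members were called lower, beside 2865 of all 13150 genes. These were the 19 and *mrpl-45*, *mrps-31* and *mrps-35* (limma adjusted p = 0.00266, 0.00865 and 0.00807).

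**Figure D2:**
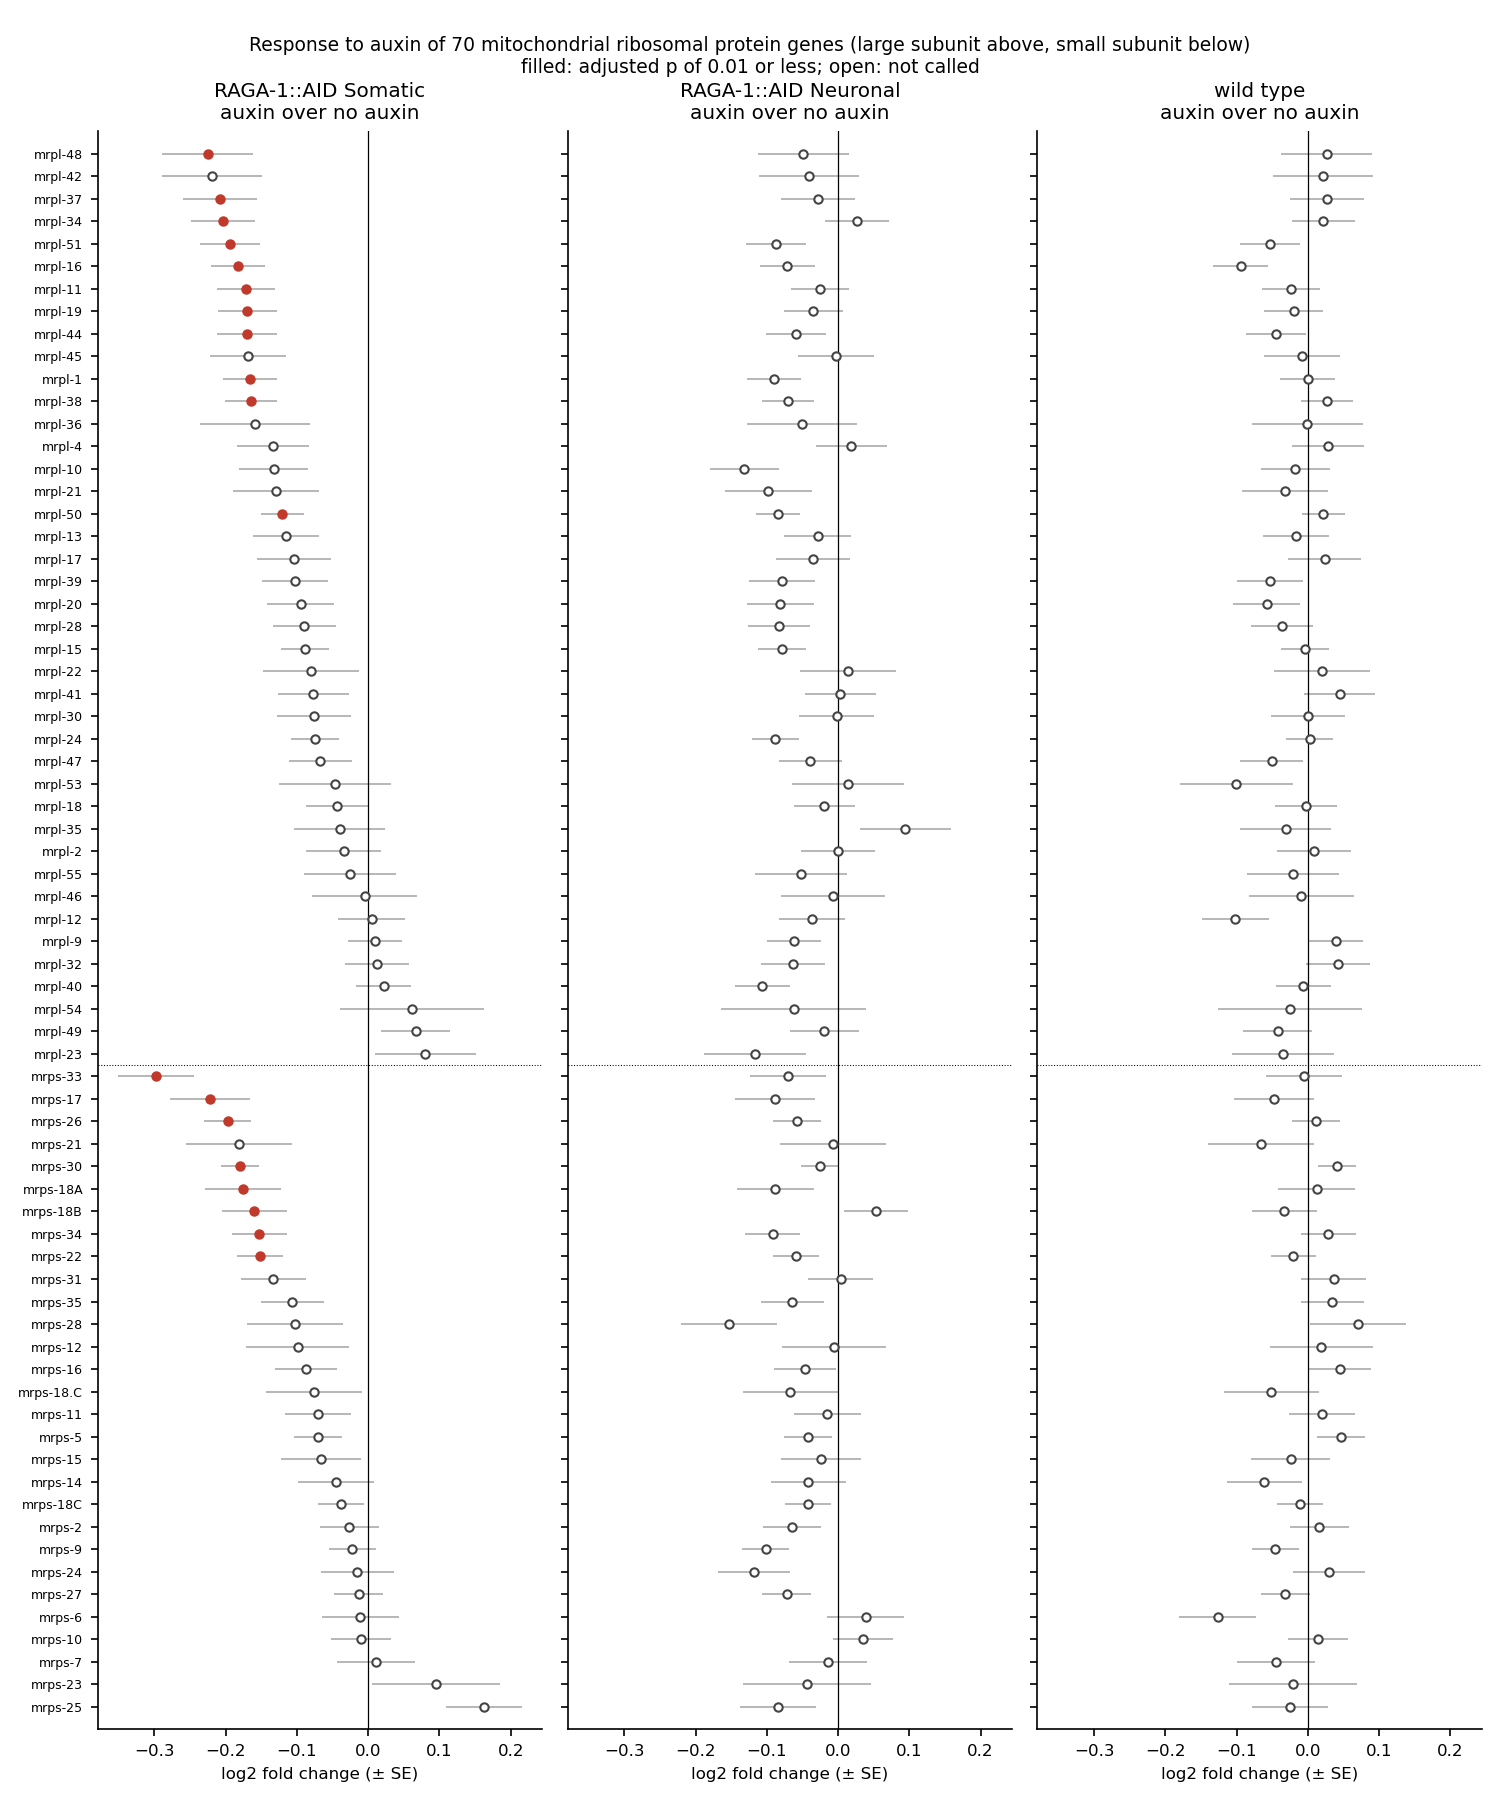
Log2 fold change of auxin over no auxin (points, ± SE from limma) for each of the 70 members in the somatic and the neuronal degron strain and in wild type, ordered within each subunit by the somatic value. Filled points passed an adjusted p of 0.01, which 19 members did in RAGA-1::AID Somatic and none in the other strains.

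In the small subunit, the largest fall was that of *mrps-33* (WBGene00009013, chromosome IV, 8739470 to 8740026 in WBcel235), a protein found only in mitochondrial ribosomes. It had 420.4, 396, 404 and 376 normalized counts in the RAGA-1::AID Somatic auxin libraries, against 467, 498, 464 and 535 in the RAGA-1::AID Somatic no auxin libraries. Every auxin library was below every no auxin library (log2 fold change -0.30 ± 0.053 (SE), adjusted p = 9.96e-05). *mrps-17*, whose bacterial counterpart binds ribosomal RNA early in assembly, had 504, 496, 537 and 465 normalized counts in the RAGA-1::AID Somatic auxin libraries, against 569.9, 567, 572 and 623 in the RAGA-1::AID Somatic no auxin libraries. Its groups did not overlap either (log2 fold change -0.22 ± 0.056 (SE), adjusted p = 0.00251). *mrps-26* (WBGene00016412, chromosome III, 5234612 to 5236364), another protein specific to mitochondria, had 1136, 1128, 1138 and 1108 normalized counts in the RAGA-1::AID Somatic auxin libraries, against 1321, 1308, 1275 and 1268 in the RAGA-1::AID Somatic no auxin libraries. The auxin libraries were close to each other and all below the no auxin ones (log2 fold change -0.20 ± 0.034 (SE), adjusted p = 5.72e-05). The smallest adjusted p of any member was that of *mrps-30* (WBGene00044321, chromosome I, 10636692 to 10638966), whose human counterpart sits in the large subunit despite its name. This gene, the most highly counted of the 70 in wild type, had 2099.8, 2110.4, 2048 and 2108 normalized counts in the RAGA-1::AID Somatic auxin libraries, against 2318, 2408, 2423 and 2328 in the RAGA-1::AID Somatic no auxin libraries, again without overlap (log2 fold change -0.18 ± 0.027 (SE), adjusted p = 1.45e-05).

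In the large subunit, *mrpl-48*, which in mammals lies in the central protuberance, had 648, 754, 683 and 682 normalized counts in the RAGA-1::AID Somatic auxin libraries, against 759, 803, 803 and 871 in the RAGA-1::AID Somatic no auxin libraries. The groups were separated by a narrow margin, with auxin replicate 2 the highest of the auxin libraries (log2 fold change -0.23 ± 0.064 (SE), adjusted p = 0.00593). *mrpl-37*, a protein found only in mitochondria, had 774, 650.2, 772 and 686 normalized counts in the RAGA-1::AID Somatic auxin libraries, against 818, 798, 856 and 852 in the RAGA-1::AID Somatic no auxin libraries. Auxin replicates 2 and 4 were lowest and the remaining pair lay just under the no auxin libraries (log2 fold change -0.21 ± 0.052 (SE), adjusted p = 0.00227). *mrpl-34*, of bacterial type, had 952, 1059, 1059.7 and 919 normalized counts in the RAGA-1::AID Somatic auxin libraries, against 1189, 1145, 1155 and 1101 in the RAGA-1::AID Somatic no auxin libraries. The highest auxin value stayed below the lowest no auxin value (log2 fold change -0.20 ± 0.045 (SE), adjusted p = 0.000742). *mrpl-51* had 1210.3, 1047, 1216 and 1191 normalized counts in the RAGA-1::AID Somatic auxin libraries, against 1313, 1274, 1402 and 1340.0 in the RAGA-1::AID Somatic no auxin libraries. Auxin replicate 2 was far below the other 3 auxin libraries, which were themselves below the no auxin group (log2 fold change -0.19 ± 0.042 (SE), adjusted p = 0.000662). *mrpl-16*, whose bacterial counterpart touches transfer RNA near the catalytic centre, had 859, 871, 803 and 797 normalized counts in the RAGA-1::AID Somatic auxin libraries, against 918, 937, 921 and 1005 in the RAGA-1::AID Somatic no auxin libraries, also without overlap (log2 fold change -0.18 ± 0.039 (SE), adjusted p = 0.000524).

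**Figure D3:**
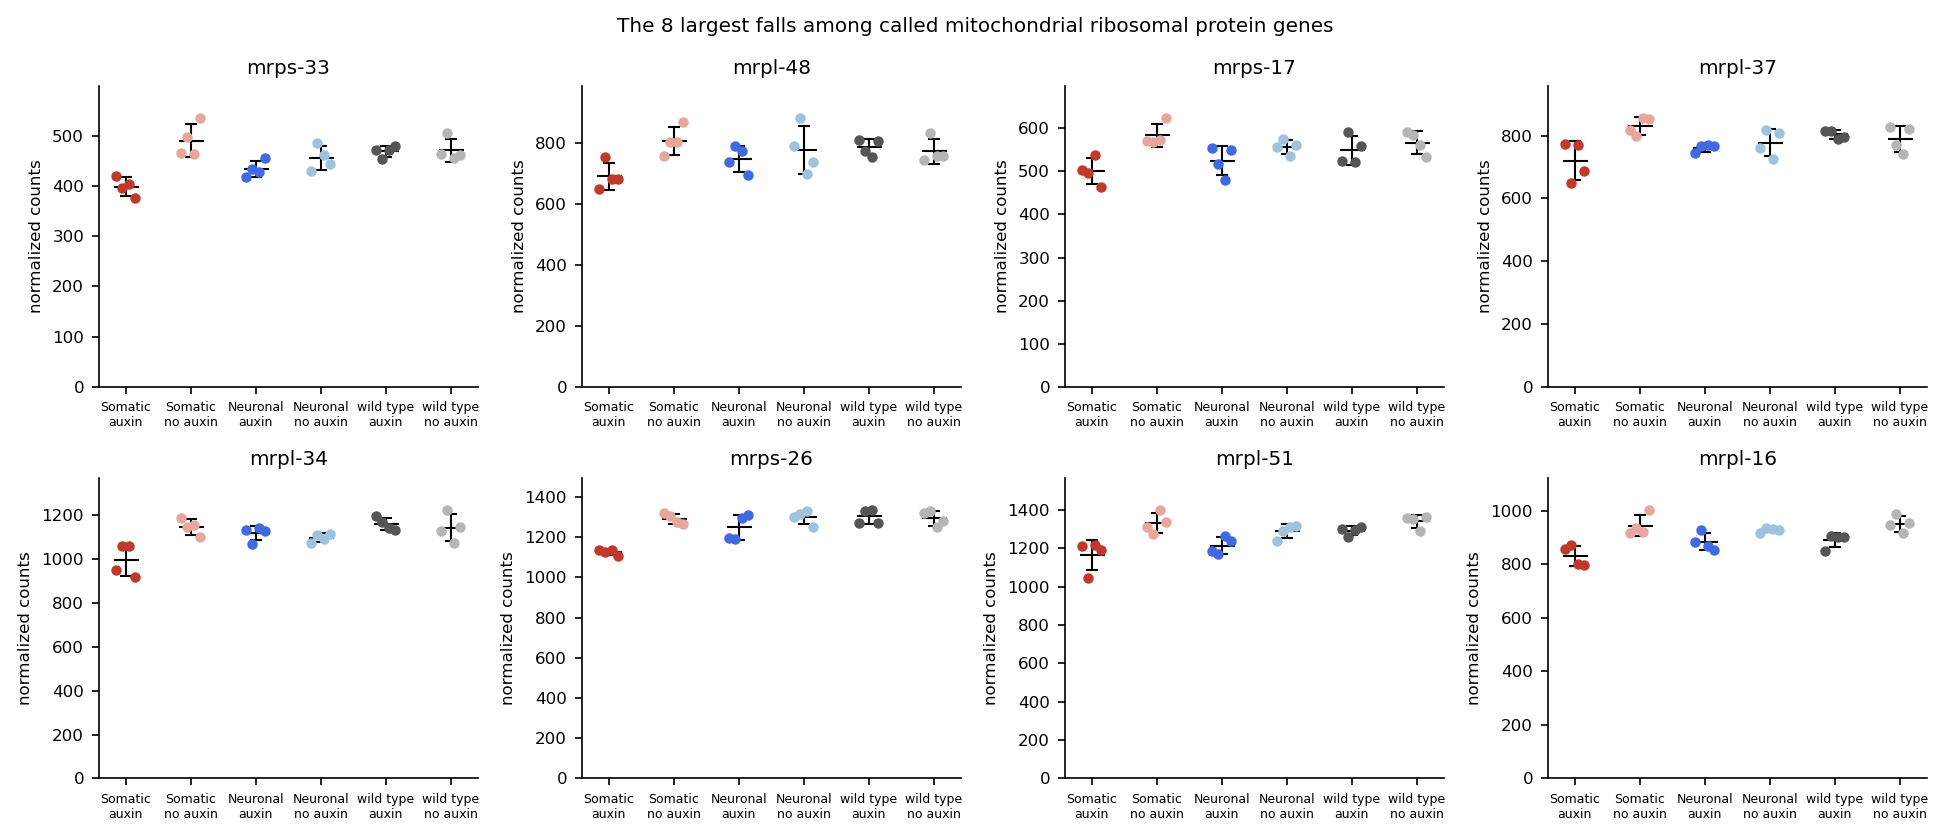
Normalized counts of the 8 called members with the largest falls in RAGA-1::AID Somatic, in every library of the 6 groups (points; horizontal marks, mean; error bars, SD, n = 4), with the degron strains named by where TIR1 is expressed. For mrps-33, auxin libraries of the somatic strain sit between 376 and 420.4, below its no auxin libraries at 464 to 535, while wild type libraries on auxin lie between 454 and 479.9.

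The 10 other members called lower were *mrpl-1*, whose bacterial counterpart forms the stalk where spent transfer RNA leaves, *mrpl-11*, *mrpl-19*, *mrpl-38*, *mrpl-44*, *mrpl-50*, *mrps-18A*, *mrps-18B*, *mrps-22* and *mrps-34*, with log2 fold changes of -0.18 to -0.12. With each of the 24 libraries left out in turn, 14 to 21 members were called lower, and 11 were called in all 24 fits (*mrpl-1*, *mrpl-11*, *mrpl-16*, *mrpl-19*, *mrpl-34*, *mrpl-38*, *mrpl-51*, *mrps-22*, *mrps-26*, *mrps-30* and *mrps-33*). The call of *mrps-18A*, at 0.00993 next to the threshold, was lost in 17 of 24 fits with an adjusted p of up to 0.0424 (without RAGA-1::AID Somatic auxin replicate 2). For *mrpl-48* it was lost in 6 fits (up to 0.0266, without RAGA-1::AID Somatic no auxin replicate 4) and for *mrps-18B* also in 6 (up to 0.0254, without RAGA-1::AID Somatic no auxin replicate 1). Among the rest, *mrpl-37* lost its call without RAGA-1::AID Somatic auxin replicate 2 (limma adjusted p = 0.0119) or 4 (0.0106), *mrps-17* without auxin replicate 4 (0.0136) or no auxin replicate 4 (0.0123), *mrps-34* without auxin replicate 1 (0.0148) or no auxin replicate 4 (0.0101), *mrpl-44* without auxin replicate 1 (0.010) and *mrpl-50* without no auxin replicate 2 (0.0113).

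Members known for a particular role did not move as one. The stalk of the large subunit recruits translation factors, and of its 3 genes *mrpl-11* fell, *mrpl-10* missed the threshold and *mrpl-12* was level. *mrpl-11* (WBGene00015133, chromosome III, 8717644 to 8718567) had 1272, 1325, 1319 and 1255 normalized counts in the RAGA-1::AID Somatic auxin libraries, against 1416, 1452, 1435 and 1523 in the RAGA-1::AID Somatic no auxin libraries (log2 fold change -0.17 ± 0.041 (SE), adjusted p = 0.00155). *mrpl-10* had 959.7 ± 24.8 normalized counts in the RAGA-1::AID Somatic auxin group, against 1055 ± 88.2 in the no auxin group (SD, n = 4 each), without overlap but with a wide no auxin group (log2 fold change -0.13 ± 0.048 (SE), adjusted p = 0.0279). *mrpl-12*, the flexible arm of the stalk, had 761 ± 34.9 normalized counts in the auxin group, against 758 ± 34.0 in the no auxin group (log2 fold change 0.0047 ± 0.046 (SE), adjusted p = 0.943), and its sign turned with total-read scaling (-0.11) and quantile normalization (-0.033).

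*mrps-5* (WBGene00008452, chromosome V, 12563487 to 12565801), the longevity gene named above, had 1766, 1944, 1961 and 1897 normalized counts in the RAGA-1::AID Somatic auxin libraries, against 1900.3, 2012, 2017 and 2012 in the RAGA-1::AID Somatic no auxin libraries. The groups overlapped and the difference did not pass (log2 fold change -0.070 ± 0.034 (SE), adjusted p = 0.0898). *mrpl-47* (WBGene00015092, chromosome I, 5244283 to 5245402), the neighbour of *let-363*, had 966, 956, 962 and 989 normalized counts in the RAGA-1::AID Somatic auxin libraries, against 953, 1012, 1011 and 1086 in the RAGA-1::AID Somatic no auxin libraries (log2 fold change -0.067 ± 0.044 (SE), adjusted p = 0.219). *let-363* had 9751, 10423, 9773 and 9551 normalized counts in the RAGA-1::AID Somatic auxin libraries, against 10919, 9829, 10008 and 10257 in the RAGA-1::AID Somatic no auxin libraries, and neither gene of the pair passed the test (log2 fold change -0.054 ± 0.042 (SE), adjusted p = 0.303 for *let-363*). *mrps-12*, whose bacterial counterpart guards accuracy in the decoding centre, did not pass (log2 fold change -0.099 ± 0.073 (SE), adjusted p = 0.273), nor did *mrpl-2*, whose bacterial counterpart lies near the peptidyl transferase centre (log2 fold change -0.035 ± 0.052 (SE), adjusted p = 0.608). *dap-3*, which encodes a small subunit protein under another kind of symbol and is therefore no member, had 1202, 1233, 1253 and 1274 normalized counts in the RAGA-1::AID Somatic auxin libraries, against 1461, 1367, 1369.6 and 1343 in the RAGA-1::AID Somatic no auxin libraries and was called lower (log2 fold change -0.16 ± 0.034 (SE), adjusted p = 0.00066), like *mrps-22*, which follows it (log2 fold change -0.15 ± 0.032 (SE), adjusted p = 0.000545).

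The only member with all auxin libraries above all no auxin libraries was *mrps-25*, a protein specific to mitochondria, singled out after its values were seen. It had 731, 658, 715 and 706 normalized counts in the RAGA-1::AID Somatic auxin libraries, against 594, 635, 644 and 637 in the RAGA-1::AID Somatic no auxin libraries. The difference missed the threshold (log2 fold change 0.16 ± 0.053 (SE), adjusted p = 0.0154) and passed it without RAGA-1::AID Somatic auxin replicate 2 (adjusted p = 0.00742) and in edgeR with the replicate block (0.00894).

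Set out by the subunit in the symbol, 11 of 41 large subunit members were called lower (median log2 fold change -0.095) and 8 of 29 small subunit members (median -0.076), with 0 higher in either. The symbol need not give the place in the ribosome, and *mrps-30* is counted here with the small subunit. By descent, 11 of 27 members found only in mitochondria were called lower (median -0.12) and 8 of 43 of bacterial type (median -0.077), beside 19.6% of all genes. The difference between these shares was not tested. Genes lying within 500 bases of a member on the same strand were counted alongside: of 51 such neighbours tested, 21 fell and 0 rose (median log2 fold change -0.12), beside the 19.6% and 16% of all genes. Near the members that fell, 7 of 15 neighbours fell, and near the others 14 of 36. *algn-9*, on the other side of *mrps-22*, had -0.31 ± 0.034 (log2, SE; limma adjusted p = 3.76e-07), whereas *cdc-26*, 109 bases from *mrps-30*, had 0.052 ± 0.042 (adjusted p = 0.326), both named after their values were seen.

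Neuronal degradation of RAGA-1 called no member in either direction. Of 70 members, 0 rose and 0 fell by limma, edgeR or DESeq2 at an adjusted p of 0.01. Over all genes, limma called 0.35% higher and 0.0913% lower. At an unadjusted p under 0.05, 11 members passed, beside 1903 of all 13150 genes. The median log2 fold change of members was -0.048 (range -0.15 to 0.095), against -0.00078 over all genes, and 59 of 70 were negative. In 8 members the auxin libraries all lay below the no auxin libraries (11.4%, beside 4.81% of all genes) and in 0 above (5.96% of all genes). The members with the smallest p were *mrps-9*, of bacterial type, and *mrpl-40*, specific to mitochondria. *mrps-9* had 1094, 1143, 1077 and 1051 normalized counts in the RAGA-1::AID Neuronal auxin libraries, against 1212, 1149, 1170.0 and 1152 in the RAGA-1::AID Neuronal no auxin libraries. The groups did not overlap, by a small margin (log2 fold change -0.10 ± 0.033 (SE), adjusted p = 0.131). *mrpl-40* had 1033, 1086, 1024 and 1068 in the auxin libraries, against 1116, 1121, 1122 and 1175 in the no auxin libraries (log2 fold change -0.11 ± 0.038 (SE), adjusted p = 0.178), and in RAGA-1::AID Somatic its log2 fold change was 0.021. *mrps-33* did not pass here (log2 fold change -0.070 ± 0.053 (SE), adjusted p = 0.593).

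In wild type, where auxin meets neither degron nor TIR1, 0 members were called (limma, edgeR and DESeq2). By limma, 0% of all genes were called in either direction. At an unadjusted p under 0.05, 3 members passed, beside 303 of all 13150 genes. The median log2 fold change of members was -0.0076 (range -0.13 to 0.070) with 42 of 70 negative. The smallest p belonged to *mrpl-16* (852, 908, 903 and 902 normalized counts on auxin, against 948, 989, 916 and 954 without; log2 fold change -0.094 ± 0.039 (SE), adjusted p = 0.9998) and *mrps-6* (log2 fold change -0.13 ± 0.054 (SE), adjusted p = 0.9998). *mrpl-16*, which fell in RAGA-1::AID Somatic, was thus also lower in all 4 wild type auxin libraries than in any of the untreated ones, without passing the test, and the difference between the somatic and the wild type response of this gene was -0.089 ± 0.055 (SE), adjusted p = 0.232 (log2). In 1 member the auxin libraries lay wholly below and in 1 wholly above the others, beside 0.776% and 0.951% of all genes.

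Without auxin, 0 members were called in either degron strain when set against wild type (limma, edgeR and DESeq2), beside 0.0228% of all genes called higher and 0.19% called lower for RAGA-1::AID Somatic, and 0% and 0.0076% for RAGA-1::AID Neuronal. At an unadjusted p under 0.05, 9 members passed for RAGA-1::AID Somatic, beside 1285 of all 13150 genes, and 6 for RAGA-1::AID Neuronal, beside 654. The median log2 difference of members was 0.042 for RAGA-1::AID Somatic, with 52 of 70 positive, and 0.0062 for RAGA-1::AID Neuronal, with 40 of 70 positive. In both, *mrpl-24* and *mrps-30* had the smallest p. *mrpl-24*, which in bacteria starts large subunit assembly, had 802, 804, 751 and 798 normalized counts in RAGA-1::AID Somatic, against 676, 719, 713 and 725 in wild type (log2 fold change 0.15 ± 0.033 (SE), adjusted p = 0.0351). *mrps-30* had 2369 ± 53.8 normalized counts in RAGA-1::AID Somatic, against 2201 ± 19.8 in wild type (SD, n = 4 each; log2 fold change 0.11 ± 0.027 (SE), adjusted p = 0.0992), so the untreated somatic group, against which its fall was measured, was itself above wild type by an amount that did not pass. On auxin, *mrps-30* in RAGA-1::AID Somatic (2091 on average) was still below untreated wild type (2201), and *mrps-33* likewise (399, against 472). Not every called member was. *mrpl-50* had 1074, 1042, 1055 and 1075 normalized counts in RAGA-1::AID Somatic on auxin, against 1066, 1061, 1041 and 1101 in untreated wild type. The difference between these groups was not tested.

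The difference between strains in the response to auxin was tested directly. Set against wild type, members differed less often than all genes, of which 9.67% were called lower and 7.11% higher. The somatic response was lower in 4 of 70 members (5.71%) and higher in 0 (median difference -0.094). These 4 were *mrps-30* (log2 difference -0.22 ± 0.038 (SE), adjusted p = 0.000243), *mrps-26* (-0.21 ± 0.047 (SE), adjusted p = 0.00234), *mrps-33* (-0.29 ± 0.075 (SE), adjusted p = 0.00591) and *mrpl-38*, which in mammals lies in the central protuberance (-0.19 ± 0.052 (SE), adjusted p = 0.00879). All 4 are found only in mitochondrial ribosomes. At an unadjusted p under 0.05, 25 members passed, beside 5368 of all 13150 genes. With 1 library left out at a time, 2 to 6 members were called lower. *mrps-33* lost the call in 9 of 24 fits (adjusted p of up to 0.0158, without RAGA-1::AID Somatic auxin replicate 4) and *mrpl-38* in 16 (up to 0.0224, without wild type no auxin replicate 1), whereas *mrps-30* and *mrps-26* kept it in all 24. The replicate block called 6, adding *mrpl-34* (adjusted p = 0.00873, against 0.0101 without the block) and *mrps-34* (0.00628). DESeq2 and a filter of 50 normalized counts each called 5, also adding *mrpl-34* (adjusted p = 0.00517 and 0.00812). edgeR and the fit on the compared libraries alone called 2. For these fits and the block, no counts over all genes are given. Total-read scaling called 30, with 676 higher and 3481 lower over all genes there, against 935 and 1271 with size factors.

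Set against the neuronal response, the somatic response was lower in 1 member, *mrps-30* (log2 difference -0.15 ± 0.038 (SE), adjusted p = 0.00642), and higher in 0 (median -0.043). The share called lower (1.43%) was under that of all genes (6.02%, with 5.22% called higher). *mrps-30* had 2299.7, 2332, 2298 and 2189 normalized counts in the RAGA-1::AID Neuronal auxin libraries, against 2346, 2360.1, 2396 and 2181 in the RAGA-1::AID Neuronal no auxin libraries, so those groups overlapped. The call was lost in 9 of 24 fits with a library left out (adjusted p of up to 0.0158, without RAGA-1::AID Neuronal auxin replicate 2), without the filter (0.0107), with TMM scaling (0.0120), after quantile normalization (0.0543), with only the compared libraries (0.0233) and in edgeR (0.0103). Total-read scaling called 13 members lower, with 529 higher and 2855 lower over all genes, against 686 and 791 with size factors. *mrpl-34* was next to the threshold (log2 difference -0.23 ± 0.063 (SE), adjusted p = 0.0117) and was called lower as the second member with the replicate block (0.00947), in DESeq2 (0.00624) and with a filter of 50 normalized counts (0.00936). For the other members that fell after somatic degradation, a difference from the neuronal response was not called in the main fit. Without RAGA-1::AID Neuronal auxin replicate 1, *mrps-18B* was also called lower (limma adjusted p = 0.00945). The neuronal response differed from wild type in 0 members by limma, edgeR or DESeq2, beside 0.0076% of all genes called in each direction by limma. At an unadjusted p under 0.05, 4 members passed, beside 870 of all 13150 genes. Smallest p values were those of *mrpl-50* (log2 difference -0.11 ± 0.043 (SE), limma adjusted p = 0.68) and *mrps-28* (-0.22 ± 0.096 (SE), adjusted p = 0.701).

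Summed over the 70 members, the libraries held 61890.4 ± 1224 normalized counts in RAGA-1::AID Somatic auxin, against 66298 ± 485 in RAGA-1::AID Somatic no auxin (SD, n = 4 each). The groups did not overlap (60716 to 63611, against 65803 to 66907). In RAGA-1::AID Neuronal the sums were 62929 ± 462 with auxin and 65071 ± 675 without, also apart (62287 to 63349.6, against 64204 to 65676), and in wild type they were 64310.3 ± 279 and 64618 ± 1381, which overlapped. As a share of the library, members made up 0.217% ± 0.0082 in RAGA-1::AID Somatic auxin, against 0.251% ± 0.0036 in RAGA-1::AID Somatic no auxin. With the 10 most abundant genes taken out of the denominator these were 0.285% and 0.299%, a smaller gap. The 15 germline markers moved the same way: 12 of 15 were called lower (80%, beside 19.6% of all genes) and 0 higher after somatic degradation (median log2 fold change -0.19), and their sum was 130481 to 137949 normalized counts in RAGA-1::AID Somatic auxin, against 146516 to 151146 in RAGA-1::AID Somatic no auxin. In the neuronal strain the sum was 140671 to 145878 with auxin and 144592 to 149716 without (median -0.049, 0 called), and in wild type 145746 to 148574 and 144834 to 152454. No germline marker was at 0. Of 15 oocyte and eggshell markers, 13 were called lower and 2 higher (sum 413359 to 437024, against 448272 to 460985). Conversely, 7 of 10 intestinal, 8 of 10 body wall muscle and 5 of 10 neuronal markers were called higher in the same libraries, with 0, 1 and 1 lower. Of 9 epidermal markers tested, 1 was called higher and 2 lower, and of 7 embryo markers 2 higher and 0 lower. Over all genes, 16% were called higher and 19.6% lower. The part of the tissue makeup in the members' falls was not tested.

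**Figure D4:**
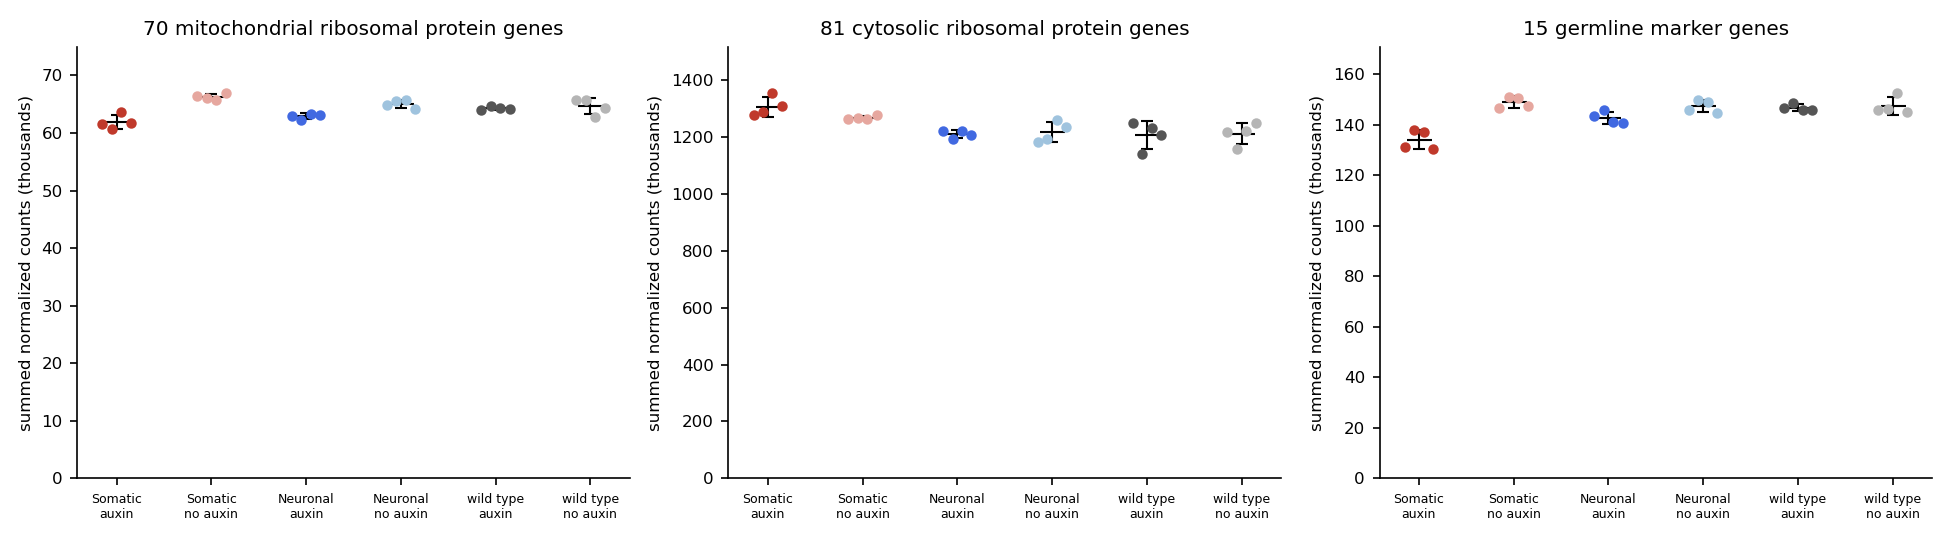
Summed normalized counts of the 70 members, the 81 cytosolic ribosomal protein genes and the 15 germline markers in every library (points; horizontal marks, mean; error bars, SD, n = 4). The means of the members and of the germline markers are lowest in RAGA-1::AID Somatic auxin, although single libraries of other groups reach into the range of the members there.

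Other genes of mitochondrial translation were in part lower in the same comparison. Of 25 listed mitochondrial translation factors and aminoacyl transfer RNA synthetases 16 were found by symbol, and of these 6 fell (37.5%, beside 19.6% of all genes) and 0 rose (beside 16%; median -0.092). *gfm-1*, the elongation factor that moves the ribosome along, had 2452 ± 126 normalized counts in RAGA-1::AID Somatic auxin, against 3111 ± 216 in RAGA-1::AID Somatic no auxin (SD, n = 4 each; log2 fold change -0.34 ± 0.045 (SE), adjusted p = 3.31e-06). *tufm-1*, the factor that delivers transfer RNAs, fell as well (log2 fold change -0.29 ± 0.037 (SE), adjusted p = 1.84e-06), and *lars-2*, the mitochondrial leucyl synthetase, also fell (log2 fold change -0.26 ± 0.037 (SE), adjusted p = 5.48e-06). Of 16 listed genes for ribosome assembly and mitochondrial RNA 9 were found, and of these 5 fell (55.6%) and 0 rose (median -0.16): *dap-3*, *mma-1*, the counterpart of the RNA stability factor LRPPRC (log2 fold change -0.19 ± 0.032 (SE), adjusted p = 4.58e-05), *hmg-5*, which packs mitochondrial DNA (log2 fold change -0.18 ± 0.035 (SE), adjusted p = 0.000284), *rpom-1*, the mitochondrial RNA polymerase, and *era-1* (log2 fold change -0.14 ± 0.029 (SE), adjusted p = 0.000356). The last was listed by its symbol, but in worms that symbol is known for a maternal RNA placed at the front of the embryo. The share of 55.6% includes *era-1* as well as *dap-3*, the small subunit protein described above. The 12 messenger RNAs that the mitochondrial ribosome translates were not called in either direction by limma, edgeR or DESeq2 (median -0.082, 1 at an unadjusted p under 0.05). Their replicates were wide apart, with standard errors from 0.064 for ND1 to 0.22 for ATP6.

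Of 80 cytosolic ribosomal protein genes tested, 0 fell and 6 rose (7.5%, fewer than the 16% of all genes; median 0.035), *rpl-25.1* by most (log2 fold change 0.35 ± 0.052 (SE), adjusted p = 1.03e-05). Of 54 nuclear genes of oxidative phosphorylation, 11 fell (20.4%, close to the 19.6% of all genes) and 5 rose (9.26%, beside 16%; median -0.035). *atp-2* and *atp-1*, the catalytic and regulatory subunits of ATP synthase, were among those that fell (log2 fold change -0.18 ± 0.028 (SE), adjusted p = 2.28e-05 and log2 fold change -0.15 ± 0.026 (SE), adjusted p = 9.86e-05). Of 14 genes of protein import, 3 fell (21.4%, also close to all genes) and 0 rose, with *tomm-40*, the outer membrane channel, among them (log2 fold change -0.23 ± 0.028 (SE), adjusted p = 1.40e-06). Of 12 genes of the mitochondrial stress response, 5 fell (41.7%, beside 19.6%) and 2 rose (16.7%, beside 16%). The falls included the chaperone *hsp-60* (log2 fold change -0.29 ± 0.032 (SE), adjusted p = 3.05e-07) and the proteases *spg-7* (log2 fold change -0.33 ± 0.031 (SE), adjusted p = 4.42e-08) and *lonp-1* (log2 fold change -0.15 ± 0.027 (SE), adjusted p = 0.000135), and *dve-1* and *gpd-2* rose. Of 12 genes on the mTORC1 list 6 fell (50%, beside 19.6%) and 0 rose (median -0.12). These 6 include *raga-1*, the tagged gene itself, whose fall is given above. Also among them were *mlst-8* (log2 fold change -0.29 ± 0.036 (SE), adjusted p = 1.96e-06), *daf-15*, the worm raptor (log2 fold change -0.15 ± 0.024 (SE), adjusted p = 2.94e-05), and *nprl-3* (log2 fold change -0.20 ± 0.035 (SE), adjusted p = 9.08e-05).

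**Figure D5:**
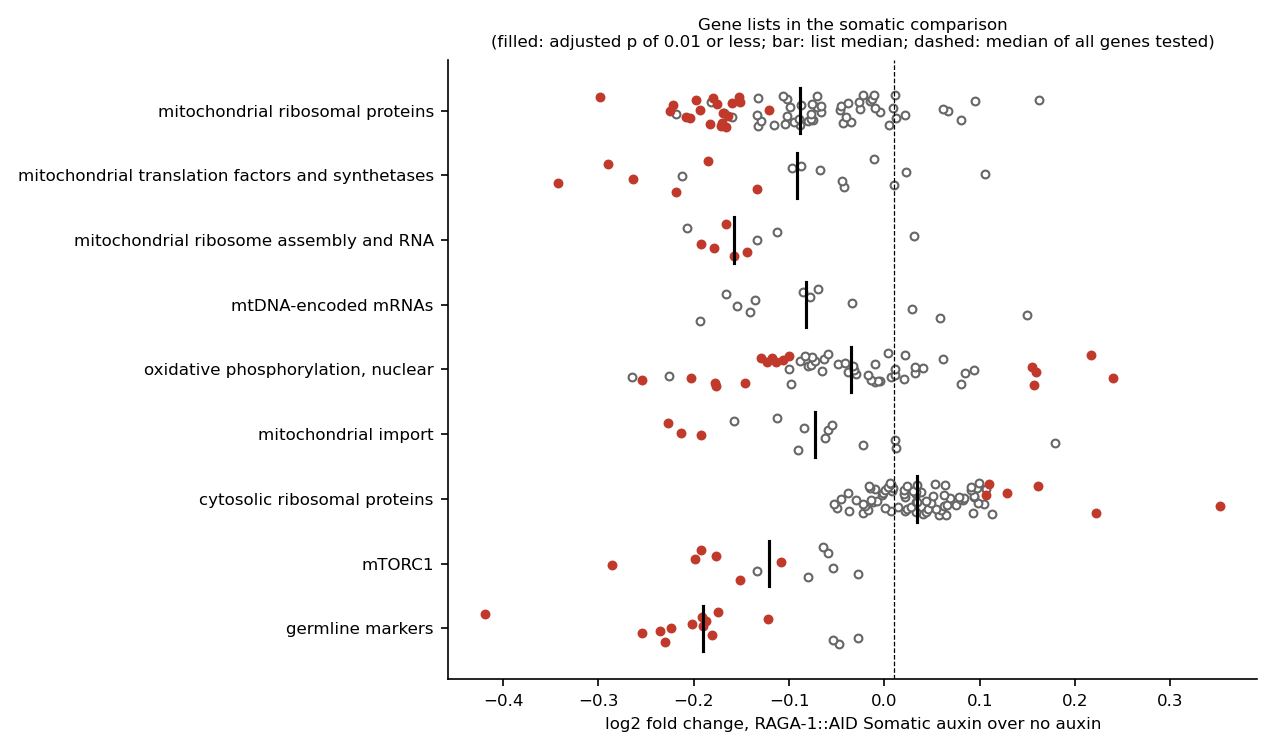
Log2 fold change of RAGA-1::AID Somatic auxin over no auxin for the genes of each list (points; filled, adjusted p of 0.01 or less; vertical bars, list medians), with the median of all 13150 genes as a dashed line. The median of the 70 mitochondrial ribosomal protein genes is -0.089 and that of the cytosolic ones 0.035.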

How the data were processed

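RNA from 24 whole-worm samples was poly(A)-selected and sequenced as paired 50-base reads. The authors quantified reads with Salmon 1.4.0 on WBcel235 (STAR 2.7.0, FastQC 0.11.5 and MultiQC for quality) and deposited the signal used here, normalized counts from DESeq2 1.34.0 (gene counts divided by a size factor). Whole reads were recovered from the steps between values, to within 0.01 read, in every library. The 13150 genes that reached 10 normalized counts in 4 or more libraries were tested on log2(value + 1) with limma 3.58.1 in R 4.3.3, with all 24 libraries, 1 mean per group, two-sided, Benjamini-Hochberg adjustment over all genes and a threshold of 0.01. Fold changes are on that scale. Count models (edgeR 4.0.16, DESeq2 1.42.0) on the recovered reads, other scalings, filters and pseudocounts, and fits with 1 library left out were alternatives. In data simulated for the somatic comparison, 44% of genes raised by 1.25-fold and 4% of those raised by 1.1-fold were called, and 2 of 12950 unchanged genes. Far fewer genes were changed there than were called in the data. Gene positions and lengths are from Ensembl 115. Per the methods, the 4 replicates were independent cultures, each grown from its own thaw and collected on its own day, and RNA was extracted 2 replicates at a time. The sources used here do not state that a replicate number stands for the same day in every group, and the methods name no day term for the study's comparisons. The main fit has none, and a fit with the replicate number as a block was an alternative. Correlations of same-numbered samples were 0.103 to 0.231 in wild type with and without auxin and 0.102 to 0.234 between untreated RAGA-1::AID Neuronal and wild type. With and without auxin they were 0.0786 to 0.238 in RAGA-1::AID Somatic and 0.0925 to 0.339 in RAGA-1::AID Neuronal. Between untreated RAGA-1::AID Somatic and wild type they were -0.0081 to 0.198. The block raised the calls over all genes, in the neuronal comparison from 46 higher and 12 lower to 189 and 42.

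Named genes were the 8 called members with the largest change in each direction in the somatic comparison, the called members (or the 2 with the smallest p) elsewhere, members with a known role, and the leading genes of each list. Members and lists were chosen with earlier results of these data known. *mrpl-3*, on the role list, was not analysed here.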

Additional observations from a re-analysis of the deposited data

Results flagged for a closer look

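In 12 of the 180 sets of 4 replicates checked for the named genes, 1 library stood apart from the other 3 by Dixon's criterion, where chance gives about 5%. In RAGA-1::AID Somatic auxin these were *mrpl-51* in replicate 2 (1047 normalized counts, others 1191 to 1216) and *mrps-30* in replicate 3 (2048, others 2099.8 to 2110.4), both lowest in a group called lower. In RAGA-1::AID Somatic no auxin, *mrps-17* was high in replicate 4 (623, others 567 to 572), *mrpl-24* low in replicate 3 (751, others 798 to 804) and *mrps-5* low in replicate 1 (1900.3, others 2012 to 2017). In RAGA-1::AID Neuronal no auxin, *mrpl-40* was high in replicate 4 (1175, others 1116 to 1122). In wild type auxin, *mrpl-16* was low in replicate 1 (852, others 902 to 908) and *mrpl-10* high in replicate 2 (1030.4, others 967 to 975). In wild type no auxin, replicate 2 was high for *mrps-33* (506, others 457 to 463) and for *mrpl-48* (834, others 745 to 758), replicate 3 low for *mrpl-51* (1291, others 1355 to 1362) and replicate 4 low for *mrpl-11* (1445, others 1499 to 1509.7).

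The response to auxin differed between strains in 5 tests of named members. The somatic response was lower than the wild type response in *mrps-33* (log2 difference -0.29), *mrps-30* (-0.22), *mrps-26* (-0.21) and *mrpl-38* (-0.19), and lower than the neuronal response in *mrps-30* (-0.15).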

How the results depend on the processing

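Each result was recomputed under other settings, and the cause of each change below was not tested. For fits on fewer libraries no counts over all genes are given, so a change in members and in power cannot be told apart there. Nor are they given for an adjusted p of 0.05 or for other filters. In the differences between responses they are also missing for TMM scaling, the replicate block, edgeR and DESeq2. A change in members alone cannot be told from one over all genes in those settings. For the somatic comparison, 19 members were called lower, against 42 with total-read scaling, 7 with only the compared libraries, 5 with replicates 1 and 4 alone, 2 with replicates 2 and 3 alone and 14 to 21 with 1 library left out. The 1 member called higher at an adjusted p of 0.05, and in edgeR with the replicate block, compares with 0 otherwise (0 to 1 with a library left out). The members' median was -0.20 with total-read scaling and -0.13 after quantile normalization (-0.10 and -0.054 over all genes). For the somatic minus neuronal response, 1 member was called lower, against 13 with total-read scaling, 5 at an adjusted p of 0.05 (1 higher), 2 with a filter of 50, in DESeq2 and with the replicate block, and 0 without the filter, with TMM scaling, in edgeR, with only the compared libraries and with either pair of replicates (0 to 2 with a library left out). Its median was -0.16 with total-read scaling and -0.0088 with replicates 2 and 3. For the somatic minus wild type response, 4 were called lower, against 30 with total-read scaling, 11 at an adjusted p of 0.05, 2 in edgeR and with only the compared libraries, 0 with either pair of replicates and 2 to 6 with a library left out, and the median was -0.23 with total-read scaling.

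The neuronal median was -0.031 with replicates 1 and 4 and -0.065 with 2 and 3. The wild type median was 0.020 with total-read scaling, -0.024 with replicates 1 and 4, 0.0095 with 2 and 3, and -0.021 to 0.0024 with a library left out. In untreated RAGA-1::AID Somatic against wild type, 1 member was called higher at an adjusted p of 0.05. For untreated RAGA-1::AID Neuronal against wild type, the median was -0.012 with replicates 1 and 4, 0.035 with 2 and 3, and -0.0086 to 0.017 with a library left out. For the neuronal minus wild type response it was -0.056 with total-read scaling, -0.019 with replicates 1 and 4, -0.067 with 2 and 3, and -0.057 to -0.020 with a library left out. Signs turned for *mrpl-12* (-0.11 with total-read scaling, -0.033 after quantile normalization, -0.058 with replicates 2 and 3, -0.018 to 0.033 with a library left out), *mrpl-2* (0.0096 with replicates 1 and 4, -0.094 to 0.0013 with a library left out) and *mrps-12* (0.023 with replicates 2 and 3), none of them called. Without the 10 most abundant genes, members made up 0.285% in RAGA-1::AID Somatic auxin and 0.299% without auxin, 0.286% and 0.295% in RAGA-1::AID Neuronal, and 0.292% and 0.292% in wild type. With the replicate number as a block, 22 members were called lower in the somatic comparison, 6 in the somatic minus wild type response, 2 in the somatic minus neuronal response and 0 in the neuronal and wild type comparisons. In simulated data 4% of the 50 genes raised by 1.1-fold, drawn from all levels of expression, were called. Far fewer genes changed there than were called in the somatic comparison, so this rate does not give the power for members. Members that were not called may still have changed by a small amount.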
